A study of Mus musculus with 6 samples.

Results

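Kruppel-like factors are transcription factors that share a DNA-binding region of zinc fingers at the end of the protein and bind GC-rich and CACCC sequences in promoters and enhancers. The family members examined here in skeletal muscle, other than Klf15, were 10: Klf2, Klf3, Klf4, Klf6, Klf7, Klf9, Klf10, Klf11, Klf12 and Klf13. They were taken by gene symbol, 1 row for each, and so make up 10 of the 52550 mouse genes in the table. The 3 groups that the family is usually divided into differ in their partners. KLF2, KLF4, KLF6 and KLF7 act mostly as activators, KLF3 and KLF12 recruit the corepressor CtBP, and KLF9, KLF10, KLF11 and KLF13 recruit the corepressor Sin3A. In muscle and fat, members of the family are known for linking hormones, the daily clock, growth signals and blood flow to metabolism and differentiation.

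The RNA sequencing addressed early transcript differences in the muscle of FLExDUX4 mice, a model of facioscapulohumeral muscular dystrophy. FLExDUX4 mice are hemizygous for an inverted, lox-flanked human DUX4 transgene at Rosa26 that is expressed at a low, leaky level with no Cre driver, and the controls were their wild-type (WT) littermates. There were 3 male mice of each genotype, which the labels give as 13 weeks old with quadriceps as the tissue, whereas the study's methods name triceps and a younger age. Libraries were made with QuantSeq, in which each polyadenylated transcript gives about 1 read, near its 3′ end, so that levels of different genes compare without a correction for length. The only values used were the counts of each gene summed over the mice of a genotype, 13110125 counts on mouse genes for FLExDUX4 and 18367364 for WT. The table also has 6 columns of single libraries, whose names match no sample label, and they were not used. No test across replicates was therefore run, a single mouse can decide any ratio given here, and every interval is a 95% interval that covers counting error only. The DUX4 transgene was not analysed here. The 8 myofiber markers made up 106707 CPM (counts scaled to a common library size) in FLExDUX4 and 107156 in WT.

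The promoter sequences of the members that differed most between genotypes are shown first, because these are the genes the results turn on. RefSeq promoter windows on GRCm38 were matched for 9 of the 10 members, the exception being Klf10. For the 5 matched members with at least 100 counts and the largest differences, the bases before the annotated start are printed 5′ to 3′ on the strand of the gene, cut short where the GENCODE gene model begins earlier. Capitals mark every match to a motif searched for on both strands. The motifs were the GC box GGGCGG, the CACCC box CCACCC, the E-box CACGTG, the cAMP response element TGACGTCA, and the D-box, CArG box and MEF2 consensus.

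Klf2, chr8:72318812-72319032 (plus strand):
Klf2: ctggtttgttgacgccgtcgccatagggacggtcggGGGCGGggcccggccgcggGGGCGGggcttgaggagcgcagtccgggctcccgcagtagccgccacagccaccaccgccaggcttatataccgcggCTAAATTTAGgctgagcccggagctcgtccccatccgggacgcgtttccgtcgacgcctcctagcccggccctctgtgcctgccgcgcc
Klf4, chr4:55532476-55532725 (minus strand):
Klf4: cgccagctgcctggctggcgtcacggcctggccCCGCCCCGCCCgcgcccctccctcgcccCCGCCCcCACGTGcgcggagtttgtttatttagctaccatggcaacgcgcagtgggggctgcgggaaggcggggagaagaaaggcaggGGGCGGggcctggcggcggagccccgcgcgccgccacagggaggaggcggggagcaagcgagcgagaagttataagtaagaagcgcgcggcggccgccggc
Klf3, chr5:64803271-64803387 (plus strand):
Klf3: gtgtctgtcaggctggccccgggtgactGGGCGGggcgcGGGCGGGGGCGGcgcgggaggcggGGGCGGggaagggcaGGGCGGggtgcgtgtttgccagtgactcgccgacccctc
Klf13, chr7:63938916-63939165 (minus strand):
Klf13: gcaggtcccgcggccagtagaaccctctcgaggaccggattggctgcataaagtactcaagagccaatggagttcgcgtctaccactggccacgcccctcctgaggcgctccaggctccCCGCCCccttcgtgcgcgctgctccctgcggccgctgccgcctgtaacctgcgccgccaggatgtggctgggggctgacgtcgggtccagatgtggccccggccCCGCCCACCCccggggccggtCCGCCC
Klf9, chr19:23140976-23141225 (plus strand):
Klf9: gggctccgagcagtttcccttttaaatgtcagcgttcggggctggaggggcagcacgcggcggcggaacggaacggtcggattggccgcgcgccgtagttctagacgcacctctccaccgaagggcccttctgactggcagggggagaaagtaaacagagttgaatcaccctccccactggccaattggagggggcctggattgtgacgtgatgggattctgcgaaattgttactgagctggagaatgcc

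In the full windows of 250 bases, GC boxes were found in 7 of the 9 members, against 32.7% of 32851 promoters of the same length. Klf3 held 6 and Klf4 held 4. In Klf13, the GC box that begins 27 bases before the start overlaps the CACCC box that begins 23 bases before it. CACCC boxes were found in 4 of the 9, Klf2, Klf3, Klf7 and Klf13, against 28.1% of all promoters. Those of Klf2 and Klf3 lie in the last 29 and 133 bases of their windows. These bases are inside the GENCODE gene models and outside the printed stretch. E-boxes, which the clock proteins can bind, were found in Klf4, Klf6 and Klf11, against 6.02% of all promoters. The MEF2 consensus, bound by factors that relay shear stress and muscle activity, was matched in Klf2, from 118 to 109 bases before the start, against 2.92% of all promoters. The windows of Klf7 and Klf12 lie wholly inside the GENCODE gene models, which start further upstream, and so are promoters of these genes only by the RefSeq start. The windows of Klf9 and Klf12 held none of the motifs, and none of the 9 held a match to the cAMP response element, D-box or CArG box. The window of Klf2 was 71.2% G and C, that of Klf3 78.4% and that of Klf9 59.6%, against a median of 52.4% over all promoters. That of Klf12 was the lowest of the 9, at 48.0%. These matches describe the letters of a short window and say nothing of binding in these muscles.

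Klf9 was by far the most abundant member. Klf9 (ENSMUSG00000033863) encodes a factor induced by glucocorticoid and thyroid hormones. It had 7788 counts in FLExDUX4 mice and 9063 in WT mice. After scaling with edgeR's TMM method, its level was 600.2 CPM (interval 587 to 614) against 488 CPM (478 to 498). Klf9 made up 64.9% of all reads on the 10 members in FLExDUX4 (64.0% to 65.7%) and 59.5% in WT (58.8% to 60.3%). Such shares are taken within 1 group total and do not depend on how the totals are scaled.

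Below Klf9, 6 members formed a middle range between 28.3 and 78.5 CPM in both genotypes. In WT mice the order of CPM levels was Klf7 at 64.5, Klf2 at 64.0, Klf13 at 57.3, Klf6 at 55.8, Klf4 at 39.5 and Klf3 at 33.4. In that order, each of Klf7, Klf2, Klf13 and Klf6 had a counting interval that overlapped that of its neighbor, and Klf4 and Klf3 stood clear of the rest. In FLExDUX4 mice the order was Klf13 at 78.5, Klf7 at 55.6, Klf3 at 53.6, Klf6 at 52.7, Klf2 at 41.2 and Klf4 at 28.3. Klf3 thus stood at rank 7 of the 10 in WT and rank 4 in FLExDUX4, and Klf2 at rank 3 and rank 6. The intervals of Klf7, Klf3 and Klf6 overlapped in FLExDUX4. Klf10, Klf11 and Klf12 were lower than all of these in both genotypes.

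**Figure D1:**
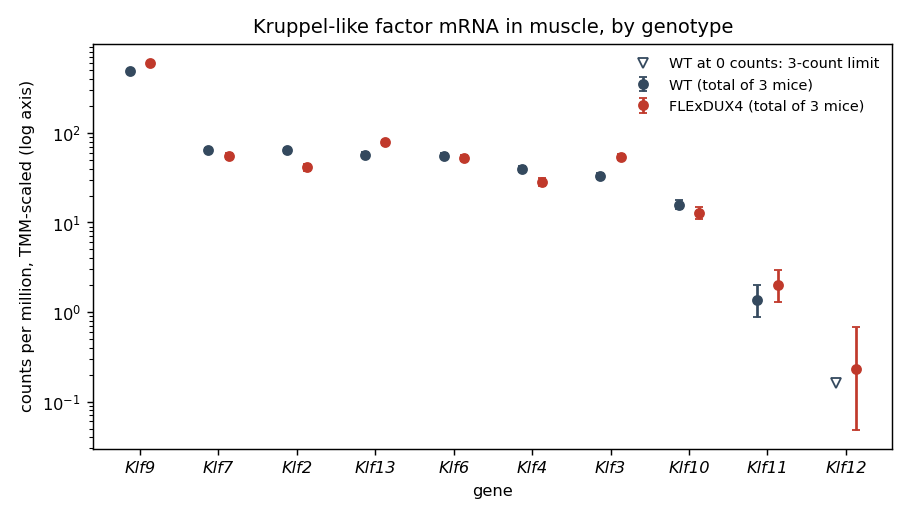
Level of each Kruppel-like factor in CPM (TMM-scaled, log axis) in the summed reads of 3 WT mice (dark) and 3 FLExDUX4 mice (red), with bars for 95% exact Poisson intervals of counting error. An open triangle marks the floor of 3 counts, 0.162 CPM, for Klf12 in WT, where it had 0 counts. Klf9 stands above the other members at 488 and 600.2 CPM, and Klf2 stands above Klf3 in WT and below it in FLExDUX4.

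In the activator group, Klf2 was the only member lower in FLExDUX4 mice past the fold used for calls below, with TMM scaling. The counting intervals of the ratios of Klf4 and Klf7 also lay below 0 with that scaling, and the interval of Klf6 held 0. Klf2 (ENSMUSG00000055148; chromosome 8 of GRCm38, 72319033 to 72321656, plus strand, protein-coding) encodes a factor that blood flow induces in endothelial cells and that keeps them quiescent. It had 534 counts in FLExDUX4 and 1188 in WT, or 41.2 CPM (37.7 to 44.8) against 64.0 CPM (60.4 to 67.8). The log2 ratio of FLExDUX4 to WT was -0.64 (interval -0.79 to -0.49), a level 64.3% of that in WT. The ratio was the lowest of the 9 members that could be compared, and it was lower still, -0.91, with totals scaled by the spike-in RNAs.

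Klf4 (ENSMUSG00000003032; chromosome 4, 55527143 to 55532466, minus strand) encodes a factor of barrier epithelia and endothelium that is also used to reprogram cells. It had 367 counts against 734, or 28.3 CPM (25.5 to 31.3) against 39.5 CPM (36.7 to 42.5), a log2 ratio of -0.48 (interval -0.67 to -0.30). Set against Klf2, there were 0.687 reads of Klf4 for each read of Klf2 in FLExDUX4 and 0.618 in WT. On the log2 scale these proportions differed by 0.15 (interval -0.08 to 0.39).

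Klf7 (chromosome 1, 64029447 to 64122282, minus strand), known for its part in neurons and for holding back fat cell differentiation, had 721 counts against 1197. Its log2 ratio was -0.21 (interval -0.35 to -0.08). Klf6 (chromosome 13, 5861482 to 5870394, plus strand), a widely expressed factor that injury and stress induce, had 684 counts against 1036 and a log2 ratio of -0.08. For Klf6 a difference was not detectable with TMM scaling (interval -0.22 to 0.06), while with spike-in scaling the ratio was -0.36 (interval -0.50 to -0.22).

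Of the CtBP-recruiting members, Klf3 was in the middle range of abundance and Klf12 was the least abundant. Klf3 (ENSMUSG00000029178; chromosome 5, 64803388 to 64832901, plus strand), which represses fat cell differentiation and is expressed in muscle, had 696 counts in FLExDUX4 and 620 in WT although the FLExDUX4 total was the smaller. This is 53.6 CPM (49.7 to 57.8) against 33.4 CPM (30.8 to 36.1). The log2 ratio was 0.68 (interval 0.52 to 0.84), or 1.61-fold, and 0.41 with spike-in scaling. Klf3 took 5.80% of the reads on the 10 members in FLExDUX4 (5.39% to 6.23%) and 4.07% in WT (3.76% to 4.40%). The study's pathway analysis lists Klf3 among the higher genes of its adipogenesis pathway. The direction here comes from the same samples and is not independent evidence for that pathway.

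Reads of Klf3 and Klf2 can be set against each other without any scaling. For each read of Klf2 there were 1.30 reads of Klf3 in FLExDUX4 and 0.522 in WT, a difference of 1.32 on the log2 scale (interval 1.11 to 1.54). For Klf9 and Klf2 the proportions were 14.6 and 7.63, a difference of 0.93 (interval 0.78 to 1.09). Against Klf3, the proportions of Klf9 and Klf13 were lower in FLExDUX4, with differences of -0.39 (interval -0.55 to -0.22) and -0.23 (interval -0.43 to -0.03) on the log2 scale. The proportions were computed for 9 pairs, and the 6 given here, with those of Klf4 to Klf2 and Klf15 to Klf3, were chosen after their values were seen.

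An unclassified locus on the same strand, C230096K16Rik, overlaps the Klf3 gene model and had 52 counts against 93. Reads in the stretch that both cover cannot be assigned to either from the table. The remaining 9 annotated loci that overlap a member in GENCODE had at most 4 counts in either total.

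Klf12, a repressor related to Klf3, had 3 counts in FLExDUX4 and 0 in WT, where the floor of 3 counts stands at 0.162 CPM. Both totals were at or under the floor, so no ratio is given. The 3′ end matters for such a gene. QuantSeq reads fall at the transcript end, and the gene start in the deposited table, which is the 3′ end of this minus-strand gene, lies 3854 bases inside the end in the later GENCODE annotation. Any reads in that stretch would be outside the counted model, and whether there were such reads was not tested. The same holds for Klf10, by 2950 bases. An end more than 1000 bases further out was annotated for 90 of the 6641 minus-strand genes compared, or 1.36%. The ends of Klf4, Klf7 and Klf13 were the same in both annotations, and for the plus-strand members the deposited table gives no end.

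Among the Sin3A-recruiting members, Klf9 and Klf13 were higher and Klf10 lower in FLExDUX4 mice. Klf13 (ENSMUSG00000052040; chromosome 7, 63886351 to 63938915, minus strand), known for its part in T lymphocytes and the heart, had 1019 counts against 1064, or 78.5 CPM (73.8 to 83.5) against 57.3 CPM (53.9 to 60.9). Its log2 ratio was 0.45 (interval 0.33 to 0.58). Scaled by the spike-ins it was 0.18 (interval 0.05 to 0.30). The log2 ratio of Klf9 (chromosome 19, 23141226 to 23168134, plus strand) was 0.30 (interval 0.25 to 0.34) with TMM scaling. With spike-in scaling the ratio of Klf9 was 0.022 and its interval, -0.02 to 0.07, held 0.

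Klf10, which transforming growth factor beta (TGF-β) induces and which is also under clock control, had 166 counts against 294, or 12.8 CPM (10.9 to 14.9) against 15.8 CPM (14.1 to 17.8). Its log2 ratio was -0.31 (interval -0.59 to -0.03). Klf11 (chromosome 12, 24651274 to 24662789, plus strand), its closest relative, had 26 counts against 25. A difference in Klf11 was not detectable at this depth, with a log2 ratio of 0.57 and an interval from -0.28 to 1.43.

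**Figure D2:**
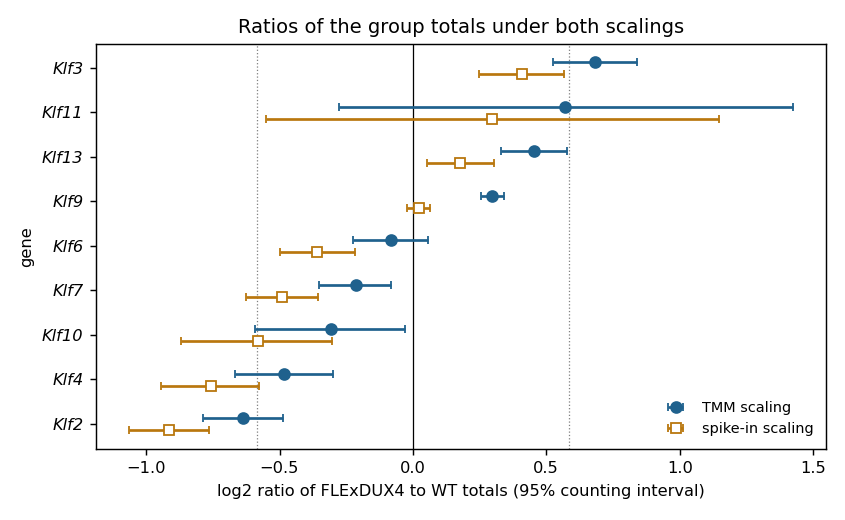
Log2 ratio of the FLExDUX4 to the WT group total for the 9 members that could be compared, with TMM scaling (filled circles) and with spike-in scaling (open squares); bars are 95% counting intervals and dotted lines mark a fold of 1.5. Klf3 at 0.68 and Klf2 at -0.64 are past the fold with TMM scaling, and with spike-in scaling every point lies 0.28 further to the left.

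Spike-in scaling is the setting that moves these values. After TMM scaling, 39 of the 45 spike-in RNAs above a minimum of 60 counts had a higher level in FLExDUX4, at a median log2 ratio of 0.28, and scaling to their totals moves every gene by -0.28. The sum of the 10 members had 12004 counts in FLExDUX4 and 15221 in WT, or 925 and 820.1 CPM. Its log2 ratio was 0.17 (interval 0.14 to 0.21) with TMM scaling and turned to -0.10 with spike-in scaling. Without Klf9 the sum was at -0.03 (interval -0.09 to 0.03) with TMM scaling and -0.31 with spike-in scaling, since members on both sides of 0 enter it. From group totals, more spike-in added to the FLExDUX4 samples and less mRNA in them cannot be told apart.

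With 1 total for each genotype, a gene was called when its ratio was past a fold of 1.5. Of the 9 members that could be compared, 1 was called higher (Klf3) and 1 lower (Klf2), against 13.2% and 13.5% of the 13396 genes compared. With spike-in scaling 0 members were called higher and 2 lower (Klf2 and Klf4), so that Klf3 was no longer called. The shares of all genes are with TMM scaling. Among the 9300 genes with at least 100 counts, 6.35% were higher and 5.83% lower past the fold, and the same members were the ones called, out of 8. Among the 2727 genes with at least 1000 counts, 0.843% were higher and 0.403% lower, and again Klf3 and Klf2 were called, out of 7. This last background was chosen after the data were seen. Among these 2727 genes, 0.587% had a ratio at or above that of Klf3 and 1.98% at or above that of Klf13, while 0.293% had a ratio at or below that of Klf2 and 1.06% at or below that of Klf4. For Klf9, 6.01% lay at or above it. Klf6 was in the body of the distribution, with 30.6% at or below it.

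The counting interval was above 0 for 3 of the 8 members with at least 100 counts (Klf3, Klf9 and Klf13) and below 0 for 4 (Klf2, Klf4, Klf7 and Klf10). For all genes with at least 100 counts these shares were 21.5% and 20.9%. Of the 8 members, 7 had at least 1000 counts, and counting intervals narrow as counts rise. The shares at 1000 counts were not computed, so members and shares are not at like depth. The median size of the log2 ratio was 0.38 over the 8 members and 0.20 over all genes with at least 100 counts. The median ratio with its sign was -0.15 over the 8 members and 0.00241 over those genes.

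**Figure D3:**
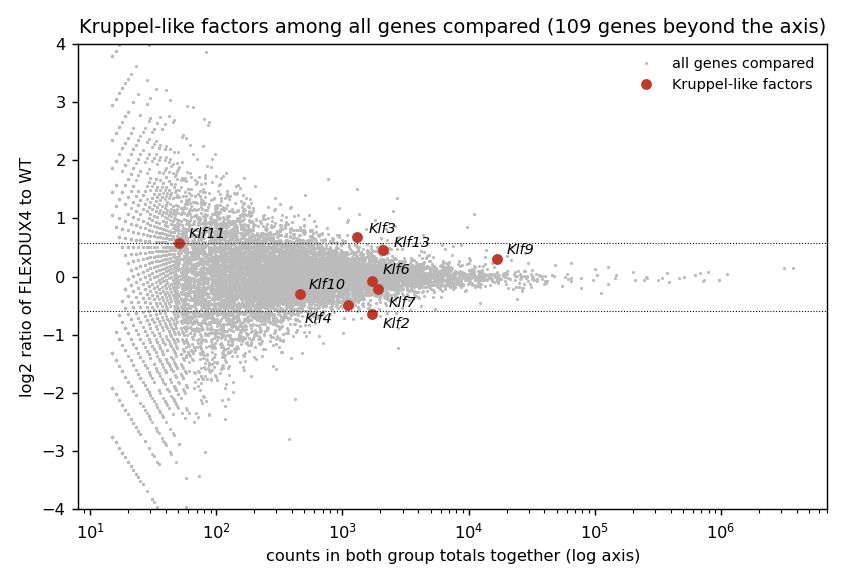
Log2 ratio of FLExDUX4 to WT against the counts in both group totals together (log axis) for all 13396 genes compared (gray) and the 9 Kruppel-like factors (red, named); dotted lines mark a fold of 1.5, and genes beyond the axis are left out. At their counts, Klf3 (0.68), Klf13 (0.45) and Klf9 (0.30) lie toward the upper edge of the gray cloud and Klf2 (-0.64) and Klf4 (-0.48) toward the lower edge.

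Other family members were read from the same table. Klf15, which links glucocorticoids and feeding to amino acid and fat metabolism, stood at 342 counts against 252 and a log2 ratio of 0.96 (interval 0.72 to 1.20). Set against Klf3, there were 0.491 reads of Klf15 for each read of Klf3 in FLExDUX4 and 0.406 in WT, which differ by 0.27 on the log2 scale (interval -0.01 to 0.56). Of 16 further KLF and SP genes, 7 had enough counts to compare. Klf15 was the 1 past the fold upward and Klf16 the 1 past it downward, at 12 counts against 37, with -1.07 on the log2 scale (interval -2.18 to -0.14), against 13.2% and 13.5% of all genes compared. Klf5, an early driver of fat cell differentiation, had a ratio of 0.05 (interval -0.23 to 0.32). The SP factors, which bind the same GC boxes, had Sp1 at 0.12, Sp2 at -0.07, Sp3 at -0.03 and Sp4 at -0.22, and each interval held 0. With spike-in scaling Sp1 turned to -0.16 and Klf5 to -0.23, and the intervals of Sp3 (-0.30) and Sp4 (-0.49) lay below 0. Klf8, a relative of Klf3 that did not have enough counts to be among the 7, had 10 counts against 1, a ratio of 3.32 with a counting interval from 1.02 to 9.28. Klf1, Klf14 and Klf17 had at most 4 counts in either total, as did Sp7 and Sp9, and Sp5, Sp6 and Sp8 had 0 in both.

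Partners of these factors were read as well. Of 9 genes for corepressors and for ubiquitin ligases that act on the family, Hdac1, a histone deacetylase, was the 1 past the fold, at 94 counts against 50 and a log2 ratio of 1.42, with an interval from 0.92 to 1.95, where 13.2% of all genes compared were higher and 13.5% lower past the fold. Hdac3 followed at 0.33. Ctbp1, which encodes the partner of KLF3, stood at 1260 counts against 1673 and a log2 ratio of 0.11, but at -0.17 with the spike-ins. Ctbp2 and Fbxw7 were the lowest, at -0.37 and -0.11, and Ctbp2 was past the fold downward with spike-in scaling, at -0.65. Sin3a and Sin3b stood at 0.24 and 0.14, with intervals that held 0, and turned to -0.04 and -0.14 with spike-in scaling.

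Klf2, Klf4, Klf6 and Klf10 are induced within minutes to hours by growth factors, much as the immediate early genes are. Of 17 immediate early genes compared, 7 were lower and 3 higher past the fold, against 13.5% and 13.2% of all genes compared. With spike-in scaling 10 were lower and 3 higher. That scaling moves every gene by -0.28, and the shares of all genes are with TMM scaling. The median log2 ratio was -0.42 with TMM scaling. Over all genes compared the median was -0.001. Myc, at 22 counts against 7, had the largest ratio of the list, 2.10. The lowest of those with at least 50 counts were Fos (59 counts against 364, ratio -2.10) and Fosl2 (-0.96), and the highest were Ier2 (1.04) and Dusp1 (0.22). Dusp1 turned to -0.06 with spike-in scaling. Beside this list, Klf2 stood at -0.64, past the fold, while Klf4, Klf10 and Klf6, at -0.48, -0.31 and -0.08, were not past it. Whether these members and the list differed together was not tested.

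Genes that act with KLF2 in endothelium went both ways. Nos3, the endothelial nitric oxide synthase and a gene that KLF2 activates, was at 64 counts against 149, a log2 ratio of -0.70 with an interval from -1.15 to -0.27. Thbd, which encodes the anticoagulant receptor thrombomodulin and is also activated by KLF2, was at 237 counts against 194, a log2 ratio of 0.80 with an interval from 0.53 to 1.09. Of the 10 genes of this list compared, these 2 were past the fold, 1 each way, against 13.2% and 13.5% of all genes compared. With spike-in scaling 0 were higher and 2 lower past the fold (Nos3 and Vcam1), while the shares of all genes are with TMM scaling. Vcam1 (-0.42) and Edn1 (0.52) had intervals that held 0 with TMM scaling, while with spike-in scaling that of Vcam1 (-0.70) lay below 0. The kinase gene Mapk7 and its activator Map2k5, which lead to MEF2 and then Klf2, had ratios of 0.20 and 0.23 with intervals that held 0, and with spike-in scaling they turned to -0.08 and -0.05.

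Klf2 and Klf4 are enriched in endothelial cells, so the markers of these cells stand beside them. All 10 markers were counted in both totals. Their sum was 334 CPM in FLExDUX4 and 336 CPM in WT, a log2 ratio of -0.01 (interval -0.07 to 0.05). With spike-in scaling the sum was at -0.29 (-0.34 to -0.23). Past the fold, 1 marker was higher and 2 lower with TMM scaling, and 0 and 4 with spike-in scaling, against 13.2% higher and 13.5% lower over all genes compared with TMM scaling. Single markers ranged from -1.34 for Cldn5 (17 counts against 63) and -0.63 for Tek to 0.36 for Tie1 and 0.73 for Esam, with a median of -0.04. Kdr, which encodes a receptor for vascular endothelial growth factor, was at 632 counts against 1334 and a log2 ratio of -0.56 (interval -0.70 to -0.42), and Emcn was at -0.44. Pecam1 and Cdh5 were at 0.06 and -0.03. With spike-in scaling Tek, Kdr and Emcn stood at -0.91, -0.84 and -0.72, and Pecam1 and Cdh5 at -0.21 and -0.30, beside -0.91 for Klf2. In muscle as a whole, fewer cells of a type and less RNA per cell cannot be told apart.

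Several members act in fat cell differentiation, KLF4 and KLF5 early in it and KLF2, KLF3 and KLF7 against it. Of 10 adipogenic regulators compared, 2 were higher and 1 lower past the fold, against 13.2% and 13.5% of all genes compared. The median log2 ratio was 0.07, and -0.21 with spike-in scaling. Pparg, the master regulator of fat cells, was at 69 counts against 54, a log2 ratio of 0.87 with an interval from 0.34 to 1.41, and Gata2 had a ratio of 0.35. Dlk1, the other gene past the fold upward, had 35 counts against 11 and a ratio of 2.14. The lowest were Ebf2 (-0.95) and Srebf1 (-0.18). Of 7 adipocyte markers, 3 were higher past the fold and 1 lower (Lep, 12 counts against 31, ratio -0.82), and with spike-in scaling 1 was higher and 1 lower. The shares of all genes given above are with TMM scaling. The sum of the adipocyte markers was 389 CPM against 306 CPM, a log2 ratio of 0.35 with an interval from 0.29 to 0.40, which spike-in scaling brought to 0.07. The highest were Cfd (0.88) and Adipoq (0.70) and the lowest with at least 50 counts were Fabp4 (0.11) and Cidec (0.20), both of which turned below 0 with spike-in scaling, at -0.16 and -0.08. The part of these cells in the values of Klf3, Klf9 and Klf13 was not tested.

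TGF-β induces Klf10 and Klf11. Of 15 genes of TGF-β signaling, 3 were higher and 2 lower past the fold, against 13.2% and 13.5% of all genes compared. With spike-in scaling 0 were higher and 4 lower, while the shares of all genes are with TMM scaling. The median log2 ratio was 0.07, and -0.20 with spike-in scaling. Smad7, an inhibitor of the pathway, stood at 0.75. The lowest were Tgfb1 (-2.88, with 4 counts against 47) and Smad6 (-0.69).

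The markers of other cells were as follows. With TMM scaling the 5 blood markers had ratios above 0, from 0.25 for Hba-a1 and 0.28 for Hbb-bt to 0.36 for Hbb-bs and 0.45 for Alas2. Of these, 0 were higher past the fold, against 13.2% of all genes compared. The sum of the blood markers stood at 0.33 (interval 0.30 to 0.36). Spike-in scaling brought the sum to 0.05 and turned Hba-a1 to -0.02. The sum of 9 immune markers was 68.5 CPM against 68.4 CPM, a ratio of 0.002 (interval -0.12 to 0.13) that spike-in scaling brought to -0.27 (-0.40 to -0.15), with the T cell marker Cd3e at 3 counts against 0 and the B cell marker Cd79a at 0 in both. Of the 7 immune markers compared, 1 was higher past the fold (Itgam, 24 counts against 17) and 2 lower, against 13.2% and 13.5% of all genes compared. Adgre1 (-0.66) and Cd68 (-0.64) were the lowest of these, and Ptprc (0.43) and Cd52 (0.15) the highest with at least 50 counts, each with an interval that held 0. With spike-in scaling Cd52 turned to -0.13, and the intervals of Adgre1 (-0.94) and Cd68 (-0.92) lay below 0. Fibroblast markers ranged from -0.01 for Dpt and 0.01 for Col3a1 to 0.48 for Lum and 0.53 for Col1a1. The sum of the fibroblast markers was at 0.14 with TMM scaling and turned to -0.14 with spike-in scaling. Myofiber markers ranged from -0.19 for Myh1 and -0.07 for Myh4 to 0.05 for Acta1 and 0.05 for Ckm, which with spike-in scaling were -0.23 and -0.22. Of 4 satellite cell and Schwann cell markers, 1 was lower past the fold, against 13.5% of all genes compared. Their median log2 ratio was 0.13 and their sum stood at -0.07 (interval -0.21 to 0.06), and with spike-in scaling these were -0.15 and -0.35 (-0.48 to -0.22). The satellite cell markers Pax7 and Myf5 went opposite ways, Pax7 at -0.82 (35 counts against 89) and Myf5 at 0.34 (23 against 26, interval -0.54 to 1.21). Whether any of these cells had a part in the ratios of the Kruppel-like factors was not tested.

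**Figure D4:**
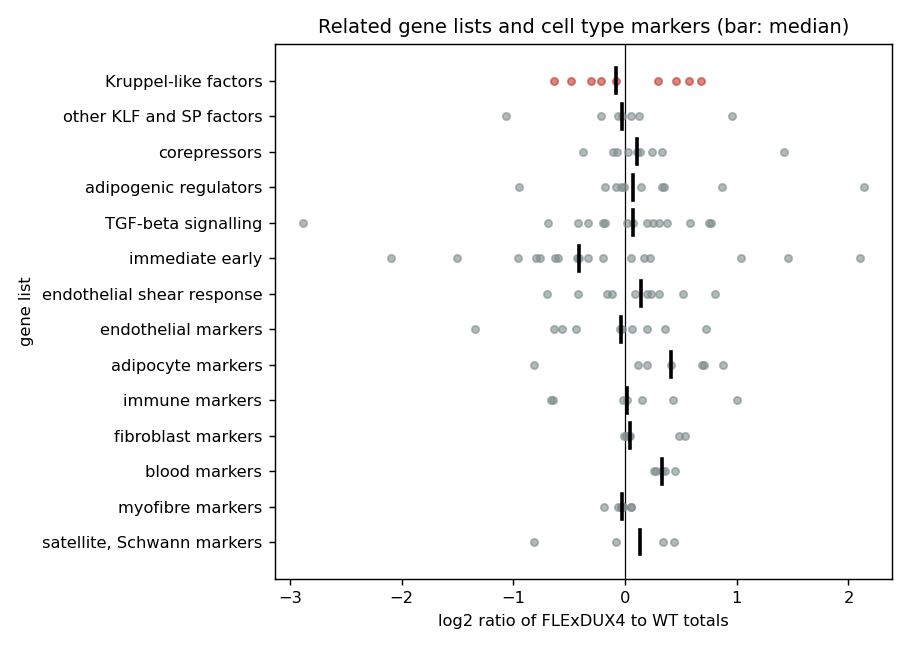
Log2 ratio of FLExDUX4 to WT for each gene compared (points) in the Kruppel-like factors (red) and in 13 related gene lists or cell type marker lists (gray), with a bar at the median of each list. The Kruppel-like factors spread from -0.64 to 0.68 around a median of -0.08, immediate early genes have the lowest median at -0.42, and adipocyte markers the highest at 0.41.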

How the data were processed

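Muscle RNA of 3 FLExDUX4 and 3 WT mice was sequenced with QuantSeq. Per the labels and the study's methods, the authors trimmed reads with Cutadapt (version 1.16), aligned them with STAR (version 2.5.3a) to GRCm38 with spike-in sequences, and counted them with featureCounts (version 1.6.2), with a strand setting not given in the sources used here. The deposited values used are raw counts for each gene, summed by the authors over a genotype. The table's 6 columns of single libraries match no sample label and were not used, nor were the authors' DESeq2 fold changes and p-values.

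Totals were scaled with TMM in edgeR (version 4.0.16, in R 4.3.3), using the 13396 genes that passed filterByExpr. Log2 ratios used a pseudocount of 0.5. Intervals are 95% Clopper-Pearson for ratios and shares, exact Poisson for CPM and normal on the log scale for proportions between members (scipy 1.17.1), and they cover counting error only. The floor was 3 counts in a total. The ratio function was tested on simulated data. The planned edgeR quasi-likelihood test, DESeq2 and leaving out replicates need values per sample and were not run. Genes named are the members, the other KLF and SP genes, and of each list the 2 highest and 2 lowest ratios among genes with at least 50 counts, apart from some that are not reported here. Genes named beyond these (Dlk1, Myc, Myf5, Itgam, Lep, Kdr, Emcn, Ctbp1, Sin3a, Sin3b, Pecam1, Cdh5, Mapk7, Map2k5, Cd3e and Cd79a) were chosen after their values were seen. Members and lists were chosen with earlier results of these data known. Promoters are from RefSeq on GRCm38.p6, gene models from a GENCODE release of the same build that is later than the annotation used for counting. Gene coordinates are printed only where the starts agree.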

Additional observations from a re-analysis of the deposited data

How the results depend on the processing

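No paired analysis was possible because the columns of single libraries match no sample label, and the group totals used in their place carry no replicate number. For the same reason leaving out each mouse was not run. The log2 ratios of the 9 members compared kept their sign with RLE, upper quartile and gene totals, with no filter, and with a pseudocount of 5 or none, each within its counting interval. With spike-in totals all signs held, but 7 ratios left their interval: Klf2 at -0.91, Klf3 at 0.41, Klf4 at -0.76, Klf6 at -0.36, Klf7 at -0.49, Klf9 at 0.022 and Klf13 at 0.18. This follows from the shift of -0.28 that the setting gives to every gene. The number of members past the fold became 0 higher and 2 lower with spike-in totals. It was 0 in both directions at a fold of 2, and 3 higher and 2 lower at the smallest fold tried. The number with an interval above 0 was 3, or 2 with spike-in totals, and below 0 it was 4, or 5 with spike-in totals. Depth limits Klf11 (51 counts in both totals) and Klf12 (3 counts).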
